A study of Mus musculus with 4 samples.

Results

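The small leucine-rich proteoglycans examined here were the genes Dcn, Lum, Bgn, Fmod, Ogn, Prelp, Aspn, Omd and Podn, taken by symbol, 9 of the 53465 genes counted. They were measured in messenger RNA from cells sorted out of mouse submandibular glands, which hold epithelial acini and ducts in a mesenchymal stroma. Adult mice received tamoxifen on postnatal days 57 and 58 and were killed on day 60, and pups received it on days 4 and 5 and were killed on day 7, with 2 libraries for each age. All mice were C57BL/6J of the genotype Fgf10CreERT2:Rosa26Tomato fl/fl and received 0.1 mg of tamoxifen per g of body weight, and no library without tamoxifen or the Cre was compared here. The Cre is driven by Fgf10, so a cell that made Fgf10 at the time of tamoxifen carries the Tomato label afterwards, whatever it expresses later. The labels state neither the sex of the mice nor how many went into a library, so the spread behind every p-value is that between libraries and may be technical.

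Small leucine-rich proteoglycans are secreted core proteins built from leucine-rich repeats, several of which carry glycosaminoglycan chains. They bind collagen fibrils and set how fibrils grow and pack, and some bind growth factors such as TGF-beta. Fibroblasts and related connective tissue cells are their usual source, and in glands they lie in the stroma around ducts and acini. Dcn (decorin), Bgn (biglycan) and Aspn (asporin) form class I, in which decorin and biglycan carry chondroitin or dermatan sulfate chains. Lum (lumican), Fmod (fibromodulin), Prelp and Omd (osteomodulin) form class II, Ogn (osteoglycin, or mimecan) belongs to class III and Podn (podocan) to a class of its own with Podnl1.

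The genes lie in 3 groups and at 2 separate places in the genome (GRCm38, GENCODE vM21). Dcn (chr10:97479609-97518143) and Lum (chr10:97565128-97572703) neighbour each other on the plus strand of chromosome 10. Aspn (chr13:49544443-49567565), Omd (chr13:49582462-49592822) and Ogn (chr13:49608046-49624501) follow each other on the plus strand of chromosome 13. Prelp (chr1:133910304-133921414, minus strand) and Fmod (chr1:134037254-134048277, plus strand) lie on chromosome 1. Bgn (chrX:73483602-73495933, plus strand) and Podn (chr4:108014791-108096445, minus strand) stand alone. All are protein-coding. Of their exon length, 9.68% of Prelp is shared with Gm15851 and 0.297% of Aspn with Cenpp, and the other 7 share none. Among the 36 pairs of genes, 3 share any stretch of 25 transcript bases. Dcn and Bgn share 2 such stretches, Dcn and Podn 3, and Bgn and Podn 2.

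Promoter sequence was at hand for 7 of the 9 genes, from RefSeq on GRCm38.p6. The 100 bases before the start are shown for Bgn with GC boxes, Prelp with a CCAAT box and 2 genes without either motif in that stretch, chosen so that they include genes whose adult libraries were close (Fmod) and far apart (Aspn). Capitals mark the GC box GGGCGG or the CCAAT box, on either strand, and overlapping matches are merged.
Bgn, chrX:73483501-73483600, plus strand: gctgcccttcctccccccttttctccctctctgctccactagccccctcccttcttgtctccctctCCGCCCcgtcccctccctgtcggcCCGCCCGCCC
Prelp, chr1:133921402-133921501, minus strand: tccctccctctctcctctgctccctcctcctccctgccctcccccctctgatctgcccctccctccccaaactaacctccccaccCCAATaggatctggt
Fmod, chr1:134037154-134037253, plus strand: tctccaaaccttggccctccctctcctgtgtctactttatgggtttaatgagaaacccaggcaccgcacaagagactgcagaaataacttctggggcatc
Aspn, chr13:49544343-49544442, plus strand: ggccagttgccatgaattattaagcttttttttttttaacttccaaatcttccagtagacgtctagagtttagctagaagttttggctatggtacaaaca
Over the 250 bases before the start, G and C made up 30.0% of the Aspn window, 38.4% of that of Omd and 42% of that of Ogn, against a median of 52.4% over 32851 promoters. The shares were 51.2% for Fmod, 55.6% for Prelp, 64.4% for Bgn, and 64.0% and 78.0% for the 2 starts of Podn. GC boxes occurred in 32.7% of all windows of 250 bases and, among these genes, in Bgn and 1 start of Podn. CCAAT occurred in 33.8% of all windows, and here in Prelp and Aspn. The letters TATAAA, in 12.4% of all windows, were found in Ogn and Aspn, in the outer part of the window, and the AP-1 letters TGANTCA, in 6.75%, in none. Both strands were searched. Neighbours on chromosome 13 thus shared a low GC content, while the genes on chromosome 1 lay near the median.

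Counts over genes ranged from 7289792 in pup replicate 1 to 21490686 in pup replicate 2. In pup replicate 1, 76.7% of reads fell outside genes, against 9.70% to 10.6% in the other libraries, and 1088 of 1127 autosomal olfactory receptor genes had a count, against 18 and 86 in the adult libraries and 36 in the other pup library. At that background rate 24.8% of its gene counts would be background, which for the proteoglycans came to 81.9 of 30403 Dcn counts, 59.9 of 423 Podn counts and 31.6 of 114 Omd counts, the largest share in the family. Ionocyte markers summed to 4867 and 3759 CPM (a gene's reads relative to the library's TMM-scaled total) in adult cells and 137 and 206 CPM in pup cells. The 8 fibroblast markers (Pdgfra, Pdgfrb, Thy1, Vim, Prrx1, Twist1, Twist2 and Tcf21) summed to 193 and 1039 CPM in adult replicates 1 and 2 and 1248 and 2582 CPM in pup replicates 1 and 2, with Tcf21 at 0 in every library but pup replicate 1 and Twist2 also at 0 in adult replicate 1. Endothelial markers summed to 0.0766 and 923 CPM in adult cells, with 5 of 6 at 0 in adult replicate 1, and to 118 and 6.36 CPM in pup cells. The sums of general epithelial markers were 9297 and 13427 CPM in adult cells and 1793 and 4253 CPM in pup cells. Pericyte and smooth muscle markers summed to 4093 and 2001 CPM in adult and 3219 and 9791 CPM in pup. This sum was mostly Acta2, at 2907 and 1197 against 2406 and 8235 CPM. Of the 7 markers, 3 had a positive and 4 a negative log2 fold change of adult over pup. Kcnj8 (242 and 123 against 21.2 and 26.1 CPM) and Notch3 (85.6 and 64.9 against 31.4 and 31.7 CPM) had both adults above both pups. Cspg4 had both below, at 26.4 and 38.4 against 74.7 and 110 CPM. Markers of cartilage, bone and tendon summed to 150.2 and 132 against 53.4 and 39.4 CPM, and those of Schwann cells to 26.7 and 56.2 against 81.9 and 180.4 CPM. The cartilage, bone and tendon sum was mostly Runx2, at 148 and 123 against 30.4 and 27.8 CPM. Of the 5 markers tested in that list, 4 had a negative log2 fold change of adult over pup. After subtraction of the background of pup replicate 1, 2 of the 5 did. The Schwann cell sum was mostly Sox10, at 25.8 and 55.8 against 63.7 and 176 CPM. Leukocyte markers stayed at 12.8 to 101 CPM and adipocyte markers at 0 to 11.04 CPM, with the highest value of each in pup replicate 1. No background was subtracted from any of these marker sums. Those of pup replicate 1, such as its 118 CPM of endothelial markers, therefore include the counts expected from background. The part of these markers in the results below was not tested, and in such bulk libraries fewer cells of a type and less RNA per cell cannot be told apart. Fgf10 stood at 195 and 40.3 CPM in adult cells and 27.3 and 24.1 CPM in pup cells.

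All 9 proteoglycans had counts in every library, from 46 counts of Aspn in adult replicate 1 to 118280 counts of Dcn in pup replicate 2. Where 2 values are given for an age, replicate 1 comes before replicate 2. Summed, they reached 1288 and 5258 CPM in adult replicates 1 and 2 and 5560 and 12887 CPM in pup replicates 1 and 2. No gene of the family was called between the ages by the test across all genes, and the log2 difference between the adult libraries exceeded that between the ages for all but Dcn and Fmod.

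Among class I, Dcn, which binds collagen and TGF-beta, had 842 and 2196 CPM in adult replicates 1 and 2 and 3290 and 6214 CPM in pup replicates 1 and 2. Both adult values lay below both pup values, and the mean was 1519 ± 957 CPM in adult and 4752 ± 2068 CPM in pup (SD, n = 2 each). Bgn, its closest relative, had 111 and 1268 CPM in adult cells and 751 and 2285 CPM in pup cells. The ages overlapped for Bgn, since adult replicate 2 stood between the pups. Aspn, which lacks the chains and also binds collagen, had 3.53 and 108 CPM in adult cells and 48.6 and 98.9 CPM in pup cells. For Aspn the adult libraries were at once the lowest and the highest of the 4.

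In class II, Lum, whose keratan sulfate form is best known from the cornea, had 21.0 and 734 CPM in adult cells and 747 and 2376 CPM in pup cells. Adult replicate 2 and pup replicate 1 were nearly level for Lum, while adult replicate 1 lay far under all others. Fmod, a regulator of collagen fibril assembly, had 191 and 246 CPM in adult cells and 297 and 1130 CPM in pup cells. The adult pair was close together for Fmod and lay below both pups, and pup replicate 2 stood apart at the top. Prelp, a heparin-binding member found near basement membranes, had 96.8 and 308 CPM in adult cells and 307 and 545 CPM in pup cells. Omd, known from bone, was the scarcest on average, with 6.13 and 25.3 CPM in adult cells and 12.3 and 6.88 CPM in pup cells. Its ages overlapped, and so did those of Prelp by the small excess of adult replicate 2 over pup replicate 1.

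Ogn, the class III member, had 11.04 and 168 CPM in adult cells and 59.8 and 199 CPM in pup cells, with adult replicate 2 again between the pups. Podn, a collagen-binding core protein known from the vessel wall, had 5.44 and 204 CPM in adult cells and 45.8 and 32.4 CPM in pup cells. Podn was the member for which adult replicate 2 exceeded the nearest pup by the widest margin, and yet adult replicate 1 was the lowest of all. Endothelial markers were also highest in adult replicate 2, at the sums given above, and their part in the Podn value was not tested.

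**Figure D1:**
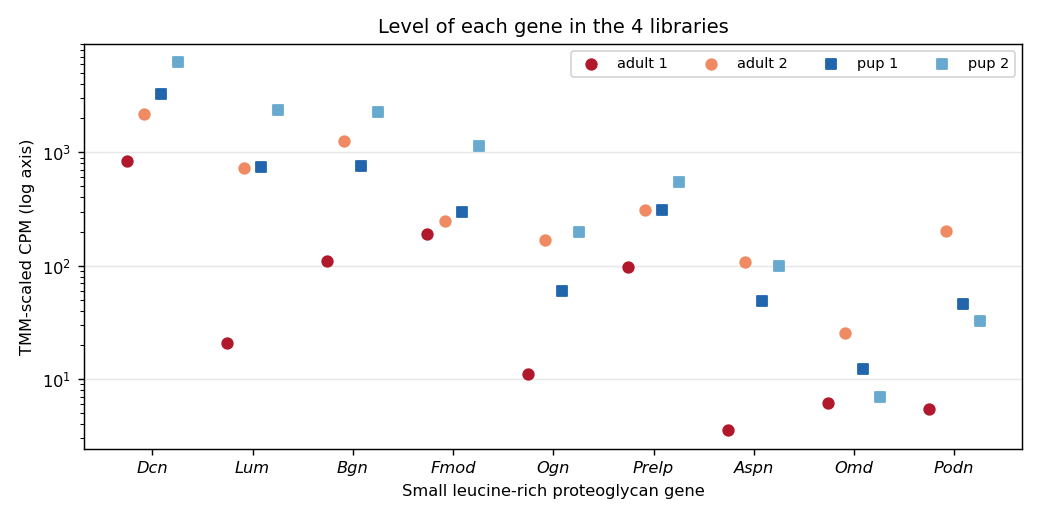
TMM-scaled CPM (log axis) of each of the 9 genes, with a point for each library, adults as circles and pups as squares. Adult replicate 1 is the lowest library for every gene, while adult replicate 2 lies among or above the pups for Bgn, Ogn, Prelp, Aspn, Omd and Podn.

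Across 16320 genes tested with edgeR's quasi-likelihood test, 0 of the 9 proteoglycans had an adjusted p under 0.05 in either direction, and the share of all genes called was 0% higher in adult and 0% higher in pup. None of the 9 had an unadjusted p under 0.05 by edgeR, where 5.99% of all genes had one with the higher level in adult and 8.49% with the higher level in pup. DESeq2 called 0 of 9 as well, where it called 3.74% of all genes up and 5.28% down in adult. At an unadjusted p under 0.05 DESeq2 had 2, Dcn and Fmod, both lower in adult, beside 11.6% of all genes lower there. By limma-voom 0 of 9 were called, and 0% of all genes in each direction. Both adult libraries lay below both pup libraries for 3 of 9 (Dcn, Lum and Fmod), a layout found in 27.1% of all genes tested, and above both for 0 of 9 (21.8% of all genes). With 2 libraries against 2, 0.33 is the smallest p an exact permutation test can give for 1 gene.

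Of the 9 genes, 7 had a negative log2 fold change (adult over pup), beside 57.1% of all genes tested, with a median of -1.07 beside -0.24. Dcn had -1.65 ± 1.48 (SE) with an edgeR adjusted p of 0.701 and a DESeq2 adjusted p of 0.0564. Fmod had the smallest edgeR p of the family, with -1.71 ± 0.88 (adjusted p = 0.459 by edgeR, 0.0914 by DESeq2). Lum had -2.05 ± 1.62 (edgeR adjusted p = 0.656). The values of Bgn, Prelp, Ogn and Aspn were -1.14 ± 1.37, -1.07 ± 0.79, -0.53 ± 1.19 and -0.41 ± 1.29, and those of Omd and Podn were 0.71 ± 1.07 and 1.43 ± 1.34. For 5 genes (Dcn, Lum, Fmod, Bgn and Prelp) the sign was negative under every alternative run. The signs of Ogn, Aspn, Omd and Podn turned with the library left out, and that of Podn also with limma-voom.

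The size of these differences rested on single libraries. Without adult replicate 1 the median of the 9 was -0.29 with 5 negative, beside a median of -0.24 over all genes, and without pup replicate 2 it was -0.12. Without adult replicate 2 all 9 were negative with a median of -2.84, and edgeR then called Aspn (-4.38, adjusted p = 0.00327) and Ogn (-3.55, adjusted p = 0.0388) lower in adult, 2 of 9 beside 4.49% of all genes, whose median was then -0.42. In these fits the lone library of an age is assumed to vary like the libraries of the other age. Podn stood at 2.33 without adult replicate 1 and at -2.84 without adult replicate 2.

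**Figure D2:**
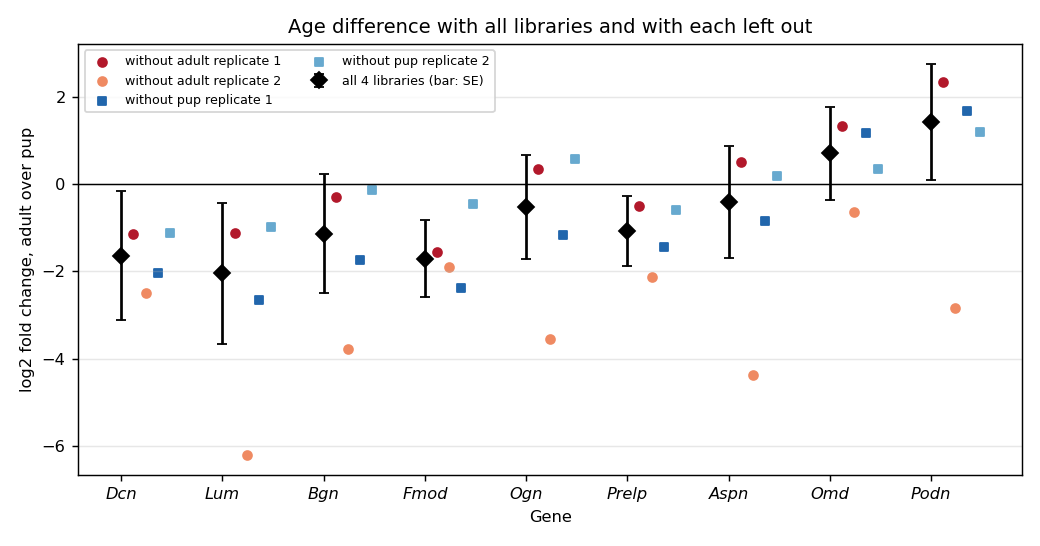
Log2 fold change of adult over pup for each gene by edgeR, as black diamonds with SE for all 4 libraries and as coloured points for fits that leave out 1 library. Without adult replicate 2 all 9 values are below 0, and Podn moves between 2.33 and -2.84.

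The adult libraries differed by gene-specific amounts. The level in adult replicate 2 was 1.28 times that in adult replicate 1 for Fmod, 2.61 times for Dcn, 3.18 times for Prelp and 4.12 times for Omd. It was 11.4 times for Bgn, 15.2 times for Ogn, 30.6 times for Aspn, 35.0 times for Lum and 37.6 times for Podn. Over 12993 genes tested that had a count in every library, the median of this ratio was 1.003 and the quartiles were 0.701 and 1.58. The fibrillar collagens that these proteoglycans bind differed still more, with ratios of 106 for Col1a1, 89.5 for Col1a2 and 81.2 for Col3a1. Thus Lum, Aspn and Podn came closest to the collagens, with ratios near that of Col5a1 at 40.3, while Fmod, Dcn and Prelp were the members whose adult libraries differed least.

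Between the pups the spread was smaller for 8 of the 9. The level in pup replicate 2 was 1.78 times that in pup replicate 1 for Prelp, 1.89 times for Dcn and at most 3.80 times, for Fmod, while Omd and Podn were lower in pup replicate 2, at 0.558 and 0.707 times. Fmod was the exception, with a wider ratio between the pups than between the adults. The 8 of 9 was not set against a share over all genes. Over the same 12993 genes the median of the pup ratio was 1.16 and the quartiles were 0.573 and 1.93. Lum (3.18), Bgn (3.04), Ogn (3.32), Aspn (2.03) and Fmod lay above the upper quartile, and Omd lay below the lower.

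**Figure D3:**
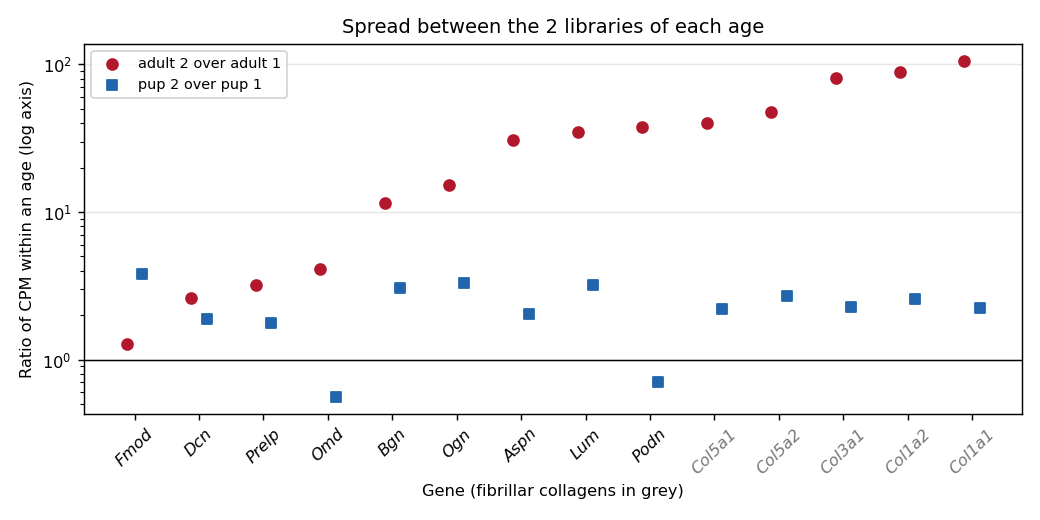
Ratio of TMM-scaled CPM between the 2 libraries of an age (log axis) for the 9 proteoglycans and 5 fibrillar collagens, ordered by the adult ratio. The adult ratio runs from 1.28 for Fmod to 106 for Col1a1, while the pup ratios stay between 0.558 and 3.80.

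Levels of different genes were compared per kb of exon. On that scale Dcn was the highest member in every library, at 144 and 376 CPM per kb in adult cells and 564 and 1064 CPM per kb in pup cells. It made up 54.3% and 31.0% of the family's summed counts per kb in adult cells and 45.9% and 35.1% in pup cells. The ranges overlapped, and the mean difference of adult minus pup was 2.15 percentage points (exact two-sided permutation p = 1). Lum was second in 3 libraries and ranked 5 of 9 in adult replicate 1, with 3.23% and 24.7% in adult cells and 24.9% and 32.0% in pup cells. Fmod took the second place in adult replicate 1, with 21.8%, against 6.12% in adult replicate 2 and 7.33% and 11.3% in pup cells. Ranks and shares depend on the length used. Exon unions span 5838 bases for Dcn and 6099 for Bgn, but their principal transcripts 1758 and 2419. Lum has 2448 bases for both. Without length scaling Bgn exceeded Lum in adult replicate 2 (1268 against 734 CPM) and pup replicate 1 (751 against 747 CPM). Prelp, with 10.1% and 7.02% in adult cells against 6.92% and 4.97% in pup cells, and Omd, with 1.03% and 0.926% against 0.447% and 0.101%, had both adult shares above both pup shares. Lum had both adult shares below both pup shares, adult replicate 2 by a narrow margin that depended on the length scaling. Without it, Lum was 734 of the family's 5258 CPM in adult replicate 2 and 747 of 5560 CPM in pup replicate 1. The share was then slightly higher in adult replicate 2, and the ages overlapped. For the shares per kb of Prelp, Omd and Lum the exact two-sided permutation test gave the smallest p that 2 against 2 allows, 0.33. A p of 0.33 arises that often where the ages do not differ, and no share over all genes was taken for this measure. The shares of Bgn, Ogn, Aspn and Podn were 6.85%, 1.62%, 0.564% and 0.480% in adult replicate 1, and 17.1%, 5.39%, 3.77% and 3.94% in adult replicate 2. In pup replicates 1 and 2 they ranged over 10.04% to 12.4% for Bgn, 1.90% to 2.55% for Ogn, 1.39% to 1.68% for Aspn and 0.250% to 0.874% for Podn. Adult replicate 2 thus had the largest share of each of these 4 genes.

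**Figure D4:**
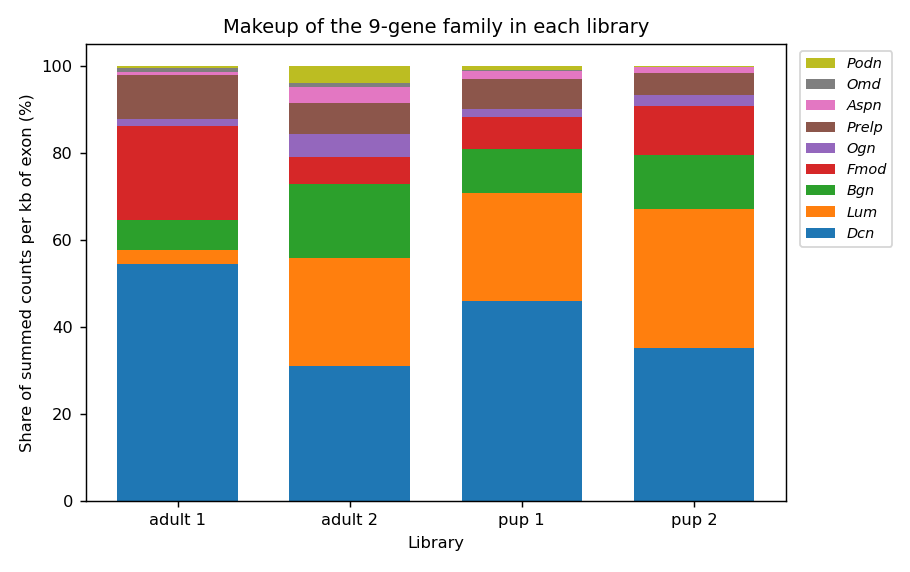
Share of each gene in the summed counts per kb of exon of the 9 proteoglycans, as stacked bars for each library. Dcn is the largest part everywhere, and adult replicate 1 stands apart by the 21.8% of Fmod and the 3.23% of Lum.

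Raw counts within a library show the same contrast without any scaling between libraries. There were 40.1 Dcn reads for each Lum read in adult replicate 1 and 2.99 in adult replicate 2, and 4.403 and 2.62 in pup cells. The ratio of Fmod to Lum was 9.11 in adult replicate 1 and 0.334 in adult replicate 2, and 0.398 and 0.476 in pup cells. For Dcn over Col1a1 it was 18.2 and 0.448 in adult cells and 0.609 and 0.515 in pup cells. Adult replicate 1 was the odd library in each of these ratios, while adult replicate 2 lay close to the pups. Podn over Aspn, at 1.54 and 1.90 in adult cells and 0.942 and 0.327 in pup cells, had instead both adults above both pups.

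Proteoglycans were next set against the fibrillar collagens Col1a1, Col1a2, Col3a1, Col5a1 and Col5a2, whose fibrils they coat. The summed proteoglycans were 10.8 times the summed collagens per kb in adult replicate 1, and 0.572 times in adult replicate 2, 0.499 times in pup replicate 1 and 0.534 times in pup replicate 2. On the log2 scale the mean was 1.31 ± 2.996 in adult and -0.95 ± 0.07 in pup (SD, n = 2 each), a difference of 2.27 (exact two-sided permutation p = 0.33, the smallest possible). Without adult replicate 1 the difference was 0.15 and without adult replicate 2 it was 4.39, so its size rested on adult replicate 1. Leaving out Dcn gave 2.19. Relative to the collagens, 6 of 9 members (Bgn, Ogn, Prelp, Aspn, Omd and Podn) were higher in both adults than in both pups, against 48.4% of all genes tested, and 0 were lower, against 6.66%. Among the widest differences in this ratio were Omd at 4.47 and Podn at 3.83 (log2, adult minus pup), where Podn had -4.27 and -5.47 in adult cells and -7.84 and -9.55 in pup cells.

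A comparison with the 8 fibroblast markers, chosen after seeing these values, gave another picture. The summed proteoglycans were 7.06 and 6.37 times the summed markers per kb in adult cells and 5.70 and 6.29 times in pup cells. Vim, at 139 and 602 CPM in adult cells and 610 and 1608 CPM in pup cells, made up most of the summed markers per kb in every library. Ratios to these markers therefore rest mainly on Vim. The fibrillar collagens were 0.653 and 11.1 times the markers in adult cells and 11.4 and 11.8 times in pup cells. With Pdgfra and Pdgfrb alone, the receptors of platelet-derived growth factors that mark fibroblasts and mural cells, as the denominator, the proteoglycans stood at 39.7 and 21.8 times in adult cells and 19.1 and 30.7 times in pup cells, and the collagens at 3.67 and 38.2 against 38.3 and 57.6 times. In adult replicate 1 the collagens were therefore low relative to the fibroblast markers and the summed proteoglycans were not. Dcn and Fmod together made up most of that sum there.

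**Figure D5:**
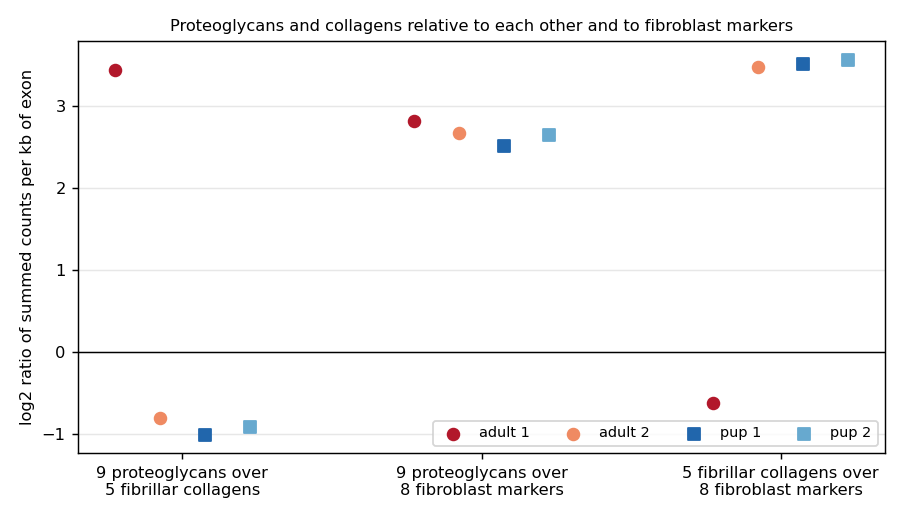
Log2 ratios of summed counts per kb of exon in each library, for proteoglycans over fibrillar collagens, proteoglycans over fibroblast markers and collagens over fibroblast markers. Vim makes up most of the fibroblast marker sum. Adult replicate 1 stands apart in the ratios that contain collagens, at 3.43 and -0.61, and lies at 2.82 beside 2.51 to 2.67 for the other libraries where proteoglycans are set against fibroblast markers.

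The profile over the 4 libraries was also matched against other genes. Of 8126 genes with a mean of at least 20 CPM outside the family, those closest to the mean profile of the 9, by the root mean square distance of centred log2 CPM, were Il33 at 0.06, Pdgfrb at 0.10, Tbl2 at 0.11, Zfp281 at 0.14 and Fbln2 at 0.14. Pdgfrb had 26.1 and 190 CPM in adult cells and 140 and 263 CPM in pup cells. Fbln2, which encodes the matrix protein fibulin-2, had 43.9 and 362 CPM against 272 and 572 CPM, and Il33, a cytokine gene of stromal and epithelial cells, 5.59 and 47.7 CPM against 33.7 and 64.9 CPM. Of the members, Bgn lay closest to the mean at 0.35 and Lum furthest at 1.26. These distances describe 4 libraries and carry no test.

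Of 9 further genes for proteoglycans or related proteins with leucine-rich repeats, 7 passed the filter on low counts, and 6 of these had a negative log2 fold change, or 5 after subtraction of the background of pup replicate 1. The median was -2.44, and -1.504 without adult replicate 1. Without adult replicate 2 the fitted median was -7.66, and -2.99 with the 4 genes at 0 counts in adult replicate 1 set to the bound that 3 counts give. Kera, which encodes the corneal proteoglycan keratocan and lies on chromosome 10 with Dcn and Lum, had 0 counts in both adults and 99 and 1101 counts in pup cells, 32.0 of the 99 expected from background. Against a floor of 3 counts over the adults, which covers counting error only, Kera was at least 519-fold lower in adult than in pup replicate 2 and at least 65.1-fold lower than in pup replicate 1 after subtraction of its background (edgeR adjusted p = 0.182). Epyc, on the same chromosome, had 0 and 40 counts in adult cells and 54 and 287 counts in pup cells, with 35.9 of the 54 expected from background. Chad, the gene for chondroadherin, a cartilage matrix protein, was the only tested one of these with a positive value, at 30.3 and 27.4 CPM in adult cells and 3.46 and 2.52 CPM in pup cells (3.27 ± 0.82 SE, edgeR adjusted p = 0.244, DESeq2 adjusted p = 0.00287). Chadl, a relative of Chad, had 4.75 and 6.26 CPM in adult cells and 31.3 and 44.1 CPM in pup cells. Ecm2, on chromosome 13 like Aspn, had 8.97 and 47.1 CPM in adult cells and 47.1 and 55.2 CPM in pup cells. Tsku had 0 and 77 counts in adult cells and 193 and 176 in pup cells, with 42.8 of the 193 expected from background. Optc had 0 and 14 counts in adult cells and 34 and 0 in pup cells, beside 36.1 expected from background in pup replicate 1. Nyx and Podnl1 had counts in pup replicate 1 alone, 53 and 54, beside 72.8 and 49.8 expected from background. By edgeR 0 of these were called, while DESeq2 called 1 of 7 higher in adult, Chad, and 2 of 7 lower, Kera and Chadl, beside 3.74% and 5.28% of all genes.

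Genes that build, cut or accompany these proteoglycans were summarised by list, and edgeR called 0 genes in each. Their counts stand beside 57.1% of all genes with a negative log2 fold change, an all-gene median of -0.24, and 3.74% higher and 5.28% lower in adult by DESeq2. All 12 fibrillar and associated collagens had a negative log2 fold change, with a median of -2.09, of -1.20 without adult replicate 1, of -1.37 without pup replicate 2 and of -6.97 without adult replicate 2 (-6.91 with 2 genes at 0 set to their bound). Their most abundant genes, Col3a1 and Col1a2, had 105 and 8498 CPM and 57.1 and 5109 CPM in adult cells, against 10505 and 23745 CPM and 5021 and 12938 CPM in pup cells. DESeq2 called 1 of the 12 lower in adult, where 5.28% of all genes were, and this was Col12a1, at 21.2 and 40.2 CPM in adult cells and 114 and 106 CPM in pup cells, named after seeing its values. Of the 12 genes for propeptide processing and core protein cleavage 10 were tested, 9 were negative, and the median was -2.07, or -1.37 without adult replicate 1 or without pup replicate 2, and -3.23 when adult replicate 2 was left out. The highest were Htra1, a secreted serine protease, at 125 and 240 CPM in adult cells and 474 and 1387 CPM in pup cells, and Mmp2, a matrix metalloproteinase, at 17.9 and 380 against 791 and 1255 CPM. DESeq2 called 4 of the 10 lower in adult, beside 5.28% of all genes (Htra1, Mmp14, Bmp1 and Adamts5, of which the last 3 are named after seeing their values, as are Chst5, Hapln1, Met and Igf1r below). Bmp1, the procollagen C-proteinase that also trims the biglycan propeptide, had 32.7 and 75.1 CPM in adult cells and 215 and 260 CPM in pup cells.

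The chain-building enzymes were mixed. Of 22 genes for chondroitin and dermatan sulfate synthesis 14 were negative and 8 positive, beside 57.1% of all genes that were negative. The median was -0.88, and -0.44 without pup replicate 2. Chpf, which aids chain polymerisation, had 36.9 and 136 CPM in adult cells and 173 and 398 CPM in pup cells, and Fam20b, a kinase of the linkage sugars, had 95.2 and 76.3 against 50.8 and 57.1 CPM. DESeq2 called 2 of the 22 lower in adult, beside 5.28% of all genes, and both are named after seeing their values. They were the chain polymerase Chsy1, at 1.99 and 2.09 CPM in adult cells and 25.4 and 43.4 CPM in pup cells, and the sulfotransferase Chst3, with 0 counts in adult cells and 82 and 161 in pup cells. At the background rate of pup replicate 1, 14.0 counts per kb, the 6497 exon bases of Chst3 would give more than its 82 counts there. In the keratan sulfate list, 7 of 8 were tested, 6 were negative and the median was -1.80. Leaving out adult replicate 1 gave -0.89, and leaving out pup replicate 2 gave -0.87. With adult replicate 2 left out it was -3.82, or -3.45 with 3 genes at 0 set to their bound. The highest genes were B4galt1, at 7.51 and 77.8 CPM in adult cells and 77.8 and 135 CPM in pup cells, and B4galt4, at 26.4 and 24.3 against 32.4 and 32.2 CPM. DESeq2 called 1 of the 7 lower, beside 5.28% of all genes, Chst5, which had 0 counts in adult cells and 76 and 33 in pup cells.

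Of 7 genes for hyaluronan-binding proteoglycans and their link proteins, 4 were tested and 3 were negative, with a median of -2.77. Without adult replicate 2 all 4 were negative, with a median of -7.37, or -5.25 with 2 genes at 0 set to their bound, and without adult replicate 1 it was -1.86. Vcan, the gene for versican, a large chondroitin sulfate proteoglycan, had 0.230 and 19.2 CPM in adult cells and 133 and 185 CPM in pup cells (-4.03 ± 1.58 SE, edgeR adjusted p = 0.321, DESeq2 adjusted p = 0.0324). DESeq2 also called Hapln1 lower, which made 2 of the 4 beside 5.28% of all genes. Hapln1 had 0 and 3 counts in adult cells and 59 and 239 in pup cells. At the background rate of pup replicate 1, its 5902 exon bases would give more than the 59 counts there. Hapln3, the other gene of highest level, had 0.230 and 5.04 CPM against 7.47 and 7.62 CPM. Among 15 ligands, receptors and fibres that proteoglycans bind, 12 were negative with a median of -0.66. Without pup replicate 2, 9 were negative with a median of -0.34, and leaving out adult replicate 2 gave -1.38. Lrp1, an endocytic receptor that takes up decorin, had 75.3 and 400 CPM in adult cells and 598 and 918 CPM in pup cells. Eln, the elastin gene, had 6.36 and 1062 CPM in adult cells and 340 and 1059 CPM in pup cells, a pattern in which, as for Lum, Aspn and Podn, adult replicate 1 was far below the rest. DESeq2 called Met, a receptor that decorin can bind, higher and Igf1r lower in adult, 1 of 15 each beside 3.74% and 5.28% of all genes. Met had 187 and 93.5 CPM in adult cells and 33.0 and 21.6 CPM in pup cells.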

How the data were processed

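RNA from Fgf10-labelled submandibular gland cells was sequenced in 2 adult and 2 pup libraries, made with the SMART-Seq HT kit per the labels' protocols. The deposited values are raw read counts per Ensembl gene, with a file for each library. Tools named in the submitters' processing notes are cutadapt 1.18, STAR 2.5.2a, HTSeq 0.11.0, R 3.5.1, DESeq2 1.20.0 and the build GRCm38. How the reads were counted with regard to strand is not stated in the labels or notes used. PCR reads without molecular identifiers are not independent molecules, so floors of 3 counts cover counting error only. HTSeq's tallies of reads not assigned to a gene, 31.5% to 84.4% of reads, were left out. The 8 value columns of the whole-series tables were not used because their names match no single sample.

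Groups come from the sample titles. Symbols and exon lengths come from GENCODE vM21, which matched 53360 of 53465 genes; lengths are unions of exons. The main test was edgeR 4.0.16 (R 4.3.3): TMM factors, filterByExpr (at least 10 counts, 15 in total), a model of age alone, quasi-likelihood F test, Benjamini-Hochberg adjustment over 16320 genes, threshold 0.05. SE is the log2 fold change divided by the root of F. The biological coefficient of variation was 0.895. Alternatives were other scalings and filters, DESeq2 1.42.0 (950 genes without an adjusted p, which are not called), limma-voom (limma 3.58.1), the replicate number as a block, subtraction of the background of pup replicate 1 (its autosomal olfactory receptor counts per kb, 14.0, times exon length) and each library left out, on the same genes. Ratios and shares within a library were compared with exact permutation tests.

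The members and gene lists were chosen with earlier results of these data known. Besides the members, Fgf10, the further leucine-rich repeat genes and the 5 nearest profiles were named by rule. So were the 2 genes of highest mean CPM in each list of genes that build, cut or accompany the proteoglycans. Cell type markers were given mainly as sums, and those with single values were not picked by that rule but with their values seen. Calls of DESeq2 were added after their values were seen.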

Additional observations from a re-analysis of the deposited data

How the results depend on the processing

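The number of genes called by edgeR, 0 in each direction of 16320 with all libraries, depended on the filter and on single libraries. It was 284 higher in adult and 231 higher in pup with no filter beyond 1 count (45490 genes), 13 and 2 with at least 10 counts in every library of an age, and 15 and 2 after subtraction of the background of pup replicate 1. DESeq2 gave 610 and 862. With 1 library left out the counts ranged from 0 to 247 higher in adult and from 0 to 733 higher in pup. The other scalings, limma-voom and the replicate block each gave 0 and 0. No label ties same-numbered libraries to a shared animal or day. Deviations of same-numbered libraries from their age means correlated at -0.0982 across genes. With 2 libraries per age both pairs must give the same value, so it cannot decide whether they share a day or batch. The block turned Podn to -0.17 and turned no other member. Members called higher in pup ranged from 0 to 2 with 1 library left out and were 0 under all other alternatives; members called higher in adult were 0 under all. Signs turned for Ogn (0.35 without adult replicate 1, 0.58 without pup replicate 2, range -3.55 to 0.58), Aspn (0.51 and 0.19 there, range -4.38 to 0.51), Omd (-0.65 without adult replicate 2, range to 1.34) and Podn (-2.84 without adult replicate 2, range to 2.33, and -0.14 with limma-voom); apart from the libraries left out, the cause was not tested. Scaling by library totals moved the median of all genes by -0.38, upper-quartile factors by -0.18 and the size factors of DESeq2 by -0.07. The members' median minus that median was -0.77, -0.82 and -0.83 there and -0.84 with TMM, and no sign turned. The adult minus pup difference in the Dcn share ranged from -9.53 to 13.8 points with 1 library left out, and was -0.13 without length scaling and 0.42 with principal transcript lengths. The log2 ratio of proteoglycans to collagens differed by 0.15 to 4.39 with 1 library left out, by 2.19 to 2.32 under the length and background alternatives and without Dcn, and by 0.16 and 0.28 (chosen after seeing the data) against fibroblast markers and against Pdgfra and Pdgfrb. Counting error is largest, relative to the value, for the lowest counts, such as the 46 Aspn and 71 Podn counts of adult replicate 1.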
